A study of Caenorhabditis elegans with 58 samples.

Results

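The microRNA hairpins mir-57, mir-67 and mir-70 of the nematode Caenorhabditis elegans are described here across every genotype, stage and experiment of a small RNA sequencing study of Argonaute catalytic mutants. Both arms of each hairpin were taken from the deposited count table by name, which gave 6 of the 276 microRNA arms and 3 of the 138 hairpins in it, over 58 libraries in 15 groups. The 3 hairpins were chosen by the level and share of their annotated star arm, which were higher in the mutants in earlier results of these same data. Every comparison of a group with AEDH against one without is therefore printed as a description with no test, and tests are kept for wild-type stages and for the ebax-1 and Y47H10A.5 alleles themselves. Those tests still use libraries that took part in the choice, which covered Argonaute mutants of all genotypes.

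A microRNA hairpin is cut by Dicer into a duplex whose strands are called the guide and the star, or passenger. An Argonaute protein loads the duplex, keeps the guide and discards the star, which is then degraded, so the star is usually the rarer arm. ALG-1 and ALG-2 are the main microRNA Argonautes of the worm. Most microRNA Argonautes regulate targets without cutting them, although a complete catalytic tetrad can cut a well paired strand. In background knowledge from the worm, mir-57 is expressed in posterior cells and acts with the posterior Hox gene nob-1. The worm mir-67 sequence is widely used as a negative control in mammalian cells because mammals lack a counterpart.

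Whole animals or mixed embryos of hermaphrodite strains were used. Wild type was N2. The double AEDH mutant (MCJ275) carried alg-2(cdb155) II and alg-1(cdb153) X, and AEDH names the catalytic tetrad after the change of its first residue. Experiment 1 compared wild type with double AEDH in mixed embryos (4 libraries each), L4 larvae (3 each) and young adults (4 each). Experiment 2 compared, in young adults with 4 libraries each, wild type, double AEDH, ebax-1(tm2321) IV (CZ9907, labelled null), the same ebax-1 allele with both AEDH alleles (MCJ354), Y47H10A.5(cdb188) I (MCJ350, labelled Y47(mir-243bs_del)) and Y47H10A.5(cdb190) I with both AEDH alleles (MCJ352). Experiment 3 compared mixed embryos of wild type, alg-1(cdb153) X alone (MCJ277) and alg-2(cdb155) II alone (MCJ288), with 4 libraries each. Growth lasted 48 h at 20 °C for L4 larvae but 44 h at 25 °C for young adults, and embryos were isolated with hypochlorite from animals kept at 20 °C. Each genotype was 1 strain. EBAX-1 is the substrate receptor of a ubiquitin ligase and the worm counterpart of ZSWIM8, which in other animals and in the worm is known for target-directed microRNA degradation. The labels do not say that replicates were separate cultures, so a p-value here reflects library-to-library spread only. All tissues were sequenced together, so fewer expressing cells and less RNA per cell cannot be told apart.

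The libraries held between 4806021 and 21076794 microRNA counts. Levels are given as CPM, the count scaled to a common library total of microRNA counts, and 3 counts correspond to at most 0.624 CPM. All 6 arms were above that floor in every library, with the lowest count being 22, for mir-67_5p* in a young adult library. The labelled stages matched their markers. The summed guide arms of mir-35 to mir-41, the embryonic family, lay between 202101 and 530354 CPM in embryo libraries, between 4398 and 6275 CPM in L4 and between 27917 and 140225 CPM in young adults. The let-7 family with lin-4, which mark late larvae and adults, lay between 154 and 583 CPM in embryos and between 55269 and 91780 CPM later. Several libraries stood apart and are named beside the results they touch.

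The 3 hairpins lie on different chromosomes and each is on the minus strand of ce11. The mir-57 hairpin (chromosome II, 7850522 to 7850582) overlaps no protein-coding gene in the annotation used, and the nearest, acr-7 on the same strand, is 725 bp away. Its guide is the 5p arm (7850559 to 7850582) and its star the 3p arm (7850522 to 7850543). The mir-67 hairpin (chromosome III, 5931364 to 5931428) lies in an intron of zmp-1, a matrix metalloprotease gene on the same strand. Its star is the 5p arm (5931406 to 5931428) and its guide the 3p arm (5931364 to 5931387). The mir-70 hairpin (chromosome V, 6665552 to 6665611) lies in an intron of pmp-5, a gene of the peroxisomal ABC transporter family on the same strand. Its star is the 5p arm (6665589 to 6665611) and its guide the 3p arm (6665552 to 6665574). The nearest other annotated hairpin to any of them is 542993 bp away. The hairpins are 61, 65 and 60 bases long, near the median of 63 over the 142 annotated hairpins, and the star arms of 22, 23 and 23 bases compare with a median of 22 over 138.

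In wild-type embryos of experiment 1 mir-57_5p stood at 10993 ± 755 CPM (SD, n = 4) and its star at 65.7 ± 16.0 CPM, so the star share of the hairpin's counts was 0.594 ± 0.140%. The mir-70 star share was 0.264 ± 0.0403% in the same libraries. mir-67 was a rare microRNA whose annotated star was the more abundant arm there, at 88.8 ± 33.0 CPM against 28.7 ± 1.96 CPM for the annotated guide. The mir-67 star share was 73.9 ± 7.87% in embryos of experiment 1 and 85.7 ± 2.74% in those of experiment 3. In wild-type L4 larvae it was 51.3 ± 3.93% (n = 3), and in wild-type young adults 28.4 ± 10.4% in experiment 1 and 49.7 ± 6.25% in experiment 2. The label star therefore names the more abundant mir-67 arm in every embryo library and in 1 of the 8 wild-type young adult libraries. In the wild-type embryos of experiment 1 the annotated star exceeded its guide by mean CPM in 15 of 138 hairpins, mir-67 among them. By rank of mean CPM among 276 arms, mir-70_3p went from 28 in these embryos to 4 in L4, mir-57_5p from 20 to 17 and mir-67_3p from 124 to 158.

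**Figure D1:**
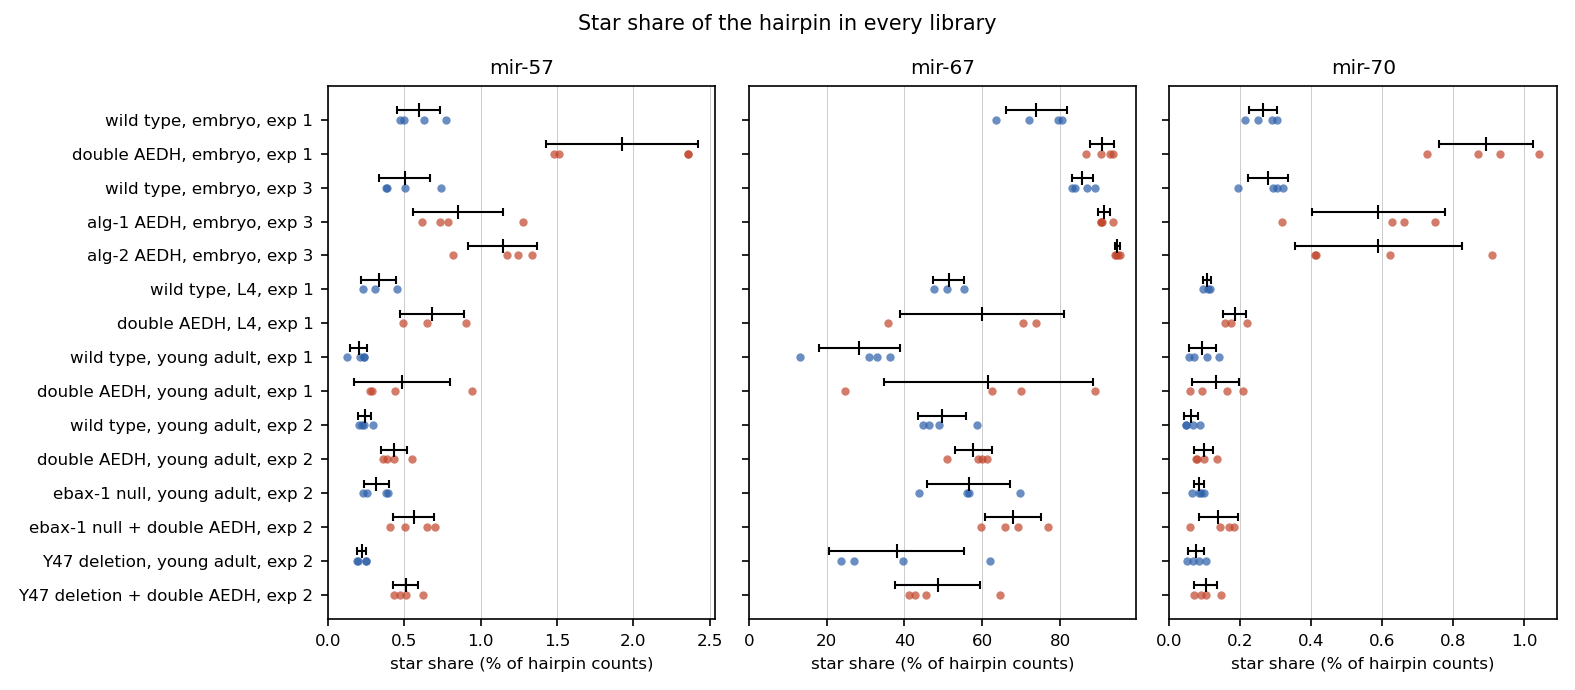
Star share of each hairpin (x axis, percent of the hairpin's counts, from 0) in all 58 libraries by group, with 1 point per library and the mean and SD of the group drawn above the points; red groups carry an AEDH allele. The mir-67 share lies between 63.6 and 95.4% in embryos and mostly below that later, while the shares of mir-57 and mir-70 stay under 2.4%.

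Stage was compared in wild type of experiment 1, and the 3 stage comparisons share their libraries. mir-57 and mir-67 star arms were highest in embryos and both arms of mir-70 were lowest there. The mir-67 star stood at 46.5, 78.8, 116 and 114 CPM in the 4 embryo libraries, at 23.2, 15.7 and 13.6 CPM in the 3 L4 libraries and at 6.69, 5.88, 5.76 and 1.91 CPM in the 4 young adult libraries. The stages did not overlap. Among all 231 tested arms, embryo CPM lay wholly above young adults in 68 and wholly below in 113. Against L4 these counts were 65 and 122, and for L4 against young adults 84 and 51. The edgeR scale uses TMM scaling. On it the mir-67 star was higher in embryos than in young adults by 4.73 log2 units (SE 0.42, edgeR adjusted p = 3.4e-07). It was higher in L4 than in young adults by 1.64 (SE 0.41, edgeR adjusted p = 0.00579). The mir-67 guide also stood higher in embryos than in young adults, by 1.82 (SE 0.18, edgeR adjusted p = 8.8e-07). The mir-67 star-to-guide ratio, which needs no scaling between libraries, was higher in embryos than in young adults by 2.95 (SE 0.40, limma adjusted p = 4.4e-05) and higher in L4 than in young adults by 1.49 (SE 0.43, limma adjusted p = 0.0177). Without wild-type L4 replicate 1 the latter was 1.37 with a limma adjusted p of 0.0652.

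The mir-57 star followed the same order at smaller size, at 50.7, 53.4, 81.9 and 76.9 CPM in embryos, 76.3, 47.9 and 39.6 CPM in L4 and 25.0, 10.4, 20.2 and 26.0 CPM in young adults. Embryos and L4 overlapped, and both lay above all young adults. The embryo exceeded the young adult by 2.29 log2 units (SE 0.29, edgeR adjusted p = 1.0e-05) and the L4 exceeded it by 1.27 (SE 0.30, edgeR adjusted p = 0.00418). Its star-to-guide ratio was higher in embryos than in young adults by 1.58 (SE 0.29, limma adjusted p = 0.000435). The step from L4 to embryo was 1.01 for the star (SE 0.31, edgeR adjusted p = 0.00828), but 0.27 with scaling by total counts (edgeR adjusted p = 0.459) and 0.54 without wild-type L4 replicate 3 (edgeR adjusted p = 0.152). The ratio for that step was 0.87 (SE 0.32, limma adjusted p = 0.0334). It lost its call without L4 replicate 2 (0.86, limma adjusted p = 0.0879), without L4 replicate 3 (0.63, 0.154), without embryo replicate 3 (0.73, 0.0977) and without embryo replicate 4 (0.83, 0.0679), with the replicate number as a block (0.81, 0.0684) and with hairpins of a mean count of at least 1 included (0.87, 0.0554). For the guide mir-57_5p the direction between embryos and L4 depends on scaling, with 0.15 under TMM (SE 0.10, edgeR adjusted p = 0.170) and -0.58 under total counts (edgeR adjusted p = 0.000262). Against young adults the guide was higher in embryos by 0.76 under TMM (SE 0.09, edgeR adjusted p = 8.2e-06) and by 0.16 under total counts (edgeR adjusted p = 0.166).

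mir-70 ran the other way in level. mir-70_3p was at 4673, 4145, 3523 and 4361 CPM in embryos, at 61422, 61252 and 55508 CPM in L4 and at 48494, 43090, 49628 and 53213 CPM in young adults. The guide was lower in embryos than in young adults by -2.94 log2 units (SE 0.10, edgeR adjusted p = 7.0e-11). The star was at 10.02, 12.0, 10.7 and 10.9 CPM in embryos against 26.8, 60.1, 52.3 and 36.9 CPM in young adults, a difference of -1.42 (SE 0.26, edgeR adjusted p = 0.000234). The guide fell further than the star, so the mir-70 star-to-guide ratio was higher in embryos, by 1.60 against young adults (SE 0.29, limma adjusted p = 0.000350) and by 1.32 against L4 (SE 0.31, limma adjusted p = 0.00419). Between L4 and young adults neither mir-70 arm passed the test, with 0.36 for the star (SE 0.27, edgeR adjusted p = 0.307) and 0.15 for the guide (SE 0.10, edgeR adjusted p = 0.277). The guide's CPM did not overlap between these stages, and with scaling by total counts it was higher in L4 by 0.29 (edgeR adjusted p = 0.0373). With spike-in scaling both arms passed, the guide at 0.67 (edgeR adjusted p = 0.0152) and the star at 0.98 (edgeR adjusted p = 0.0183).

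These counts stand against a background in which most arms differed between stages. All 6 member arms passed between embryos and young adults, where 85.7% of the 231 tested arms did, 5 passed between embryos and L4 (background 83.5%) and 3 between L4 and young adults (48.1%). For the star-to-guide ratio 3 of 3 hairpins passed between embryos and young adults, where 61.3% of 93 hairpins did, 3 passed between embryos and L4 (55.9%) and 1 between L4 and young adults (33.3%). The median ratio of all 93 hairpins was higher in embryos than in young adults by 0.40, and 40 hairpins passed upward against 17 downward. In the mir-51 family (mir-51 to mir-56) 5 of 6 star arms and 6 of 6 guide arms passed upward in embryos against young adults. Over all hairpins 46 of 99 star arms and 57 of 132 guide arms passed upward there. TMM placed the members' log2 differences up to 0.60 (embryo against young adult) and 0.75 (embryo against L4) above the logarithm of the CPM ratio, and under total-count scaling the median arm stood at -0.43 and -0.58 in place of 0.12 and 0.15. Young adults were also grown at another temperature, which cannot be told apart from stage.

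**Figure D2:**
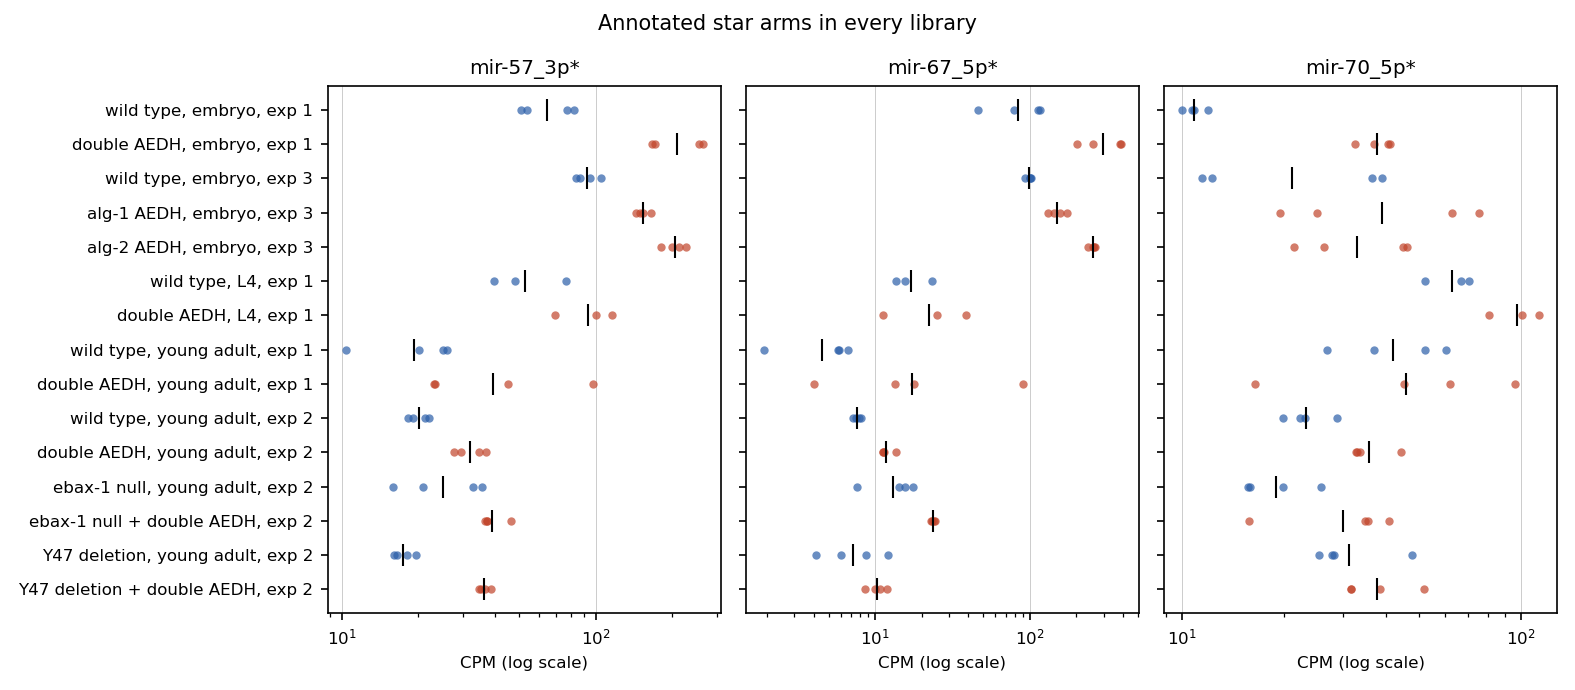
CPM of the 3 annotated star arms (x axis, log scale) in all 58 libraries by group, with 1 point per library and a bar at the geometric mean; red groups carry an AEDH allele. In embryos of experiment 1 the double AEDH libraries lie above all wild-type libraries for each star arm, and mir-67_5p* in 1 double AEDH young adult library of experiment 1 lies at 90.9 CPM.

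In double AEDH embryos all 3 star arms stood higher than in wild type by similar factors while the guides were close to wild type. The mir-57 star was at 171, 166, 264 and 255 CPM in the mutant, against 50.7 to 81.9 CPM in wild type, and its share at 1.48, 1.51, 2.36 and 2.36%. The mir-67 star was at 202, 255, 385 and 389 CPM against 46.5 to 116 CPM, and its share at 86.5, 90.5, 92.7 and 93.5%. The mir-70 star was at 40.6, 41.2, 37.0 and 32.4 CPM against 10.02 to 12.0 CPM, and its share at 0.726, 0.933, 0.871 and 1.04%. No mutant library overlapped with wild type in any of these 6 measures. The log2 differences of the stars were 1.68, 1.78 and 1.77 for mir-57, mir-67 and mir-70, that is 3.26, 3.46 and 3.47 times the mean wild-type CPM. The guides differed by -0.04, -0.02 and 0.01. Every mutant library was above every wild-type library in 17 of 212 arms (8.02%), 16 of them among the 85 star arms. Since these libraries chose the hairpins, nothing is read from the 3 of 3 stars. The median over all 85 star arms in the fit was 0.44, and that of the 6 mir-51 family star arms 0.53. Most hairpins also moved this way by ratio, with 70 of 86 shifted toward the star arm in the mutant and a median log2 shift of 0.52. Non-overlap of shares was not counted over all hairpins, here or in the later comparisons, so it has no background. The embryonic family sum overlapped between the genotypes, from 470415 to 530354 CPM in the mutant and from 480162 to 518221 CPM in wild type.

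The single mutants of experiment 3 were measured against shared wild-type embryos. For the mir-57 star, wild type was at 95.1, 104, 86.9 and 83.6 CPM, alg-1 AEDH at 153, 144, 165 and 150 CPM and alg-2 AEDH at 201, 227, 180 and 213 CPM. The 3 groups did not overlap, and the log2 differences from wild type were 0.71 in alg-1 AEDH and 1.13 in alg-2 AEDH. The mir-67 star was at 93.6, 101, 100 and 101 CPM in wild type, at 132, 144, 173 and 158 CPM in alg-1 AEDH and at 256, 265, 239 and 259 CPM in alg-2 AEDH. Again the groups did not overlap, with differences of 0.60 and 1.36. The alg-2 mutant thus stood above the alg-1 mutant in all libraries for both stars, by 0.43 for mir-57 and by 0.76 for mir-67. Every alg-2 AEDH library was above every alg-1 AEDH library in 14 of 197 arms, 13 of them among the 78 star arms. By share, the mir-67 groups did not overlap either, at 85.7 ± 2.74% in wild type, 91.3 ± 1.51% in alg-1 AEDH and 94.6 ± 0.604% in alg-2 AEDH. The mir-57 share was 0.502 ± 0.169%, 0.853 ± 0.293% and 1.14 ± 0.226% in the same order, but alg-1 AEDH (0.616 to 1.28%) overlapped with wild type (0.380 to 0.740%) and with alg-2 AEDH (0.821 to 1.34%). In same-numbered libraries that share was above wild type in 4 of 4 pairs in each mutant, and higher in alg-2 than in alg-1 AEDH in 3 of 4.

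The mir-70 star did not keep that order. It was at 12.3, 11.5, 38.9 and 36.5 CPM in wild type, at 25.1, 19.5, 62.6 and 75.5 CPM in alg-1 AEDH and at 21.5, 26.2, 45.0 and 46.2 CPM in alg-2 AEDH. In each genotype replicates 1 and 2 were low and replicates 3 and 4 high, so the groups overlapped, while each same-numbered mutant library was above its wild type in both mutants. The differences were 0.88 in alg-1 AEDH and 0.54 in alg-2 AEDH, with alg-2 below alg-1 by -0.34. Within replicates 1 and 2 alone they were 0.95 and 0.94, and within replicates 3 and 4 alone 0.88 and 0.48, a division made after the data were seen. The embryonic family sum ran the opposite way in wild type, at 308459 and 325665 CPM in wild-type replicates 1 and 2 against 202101 and 223377 CPM in replicates 3 and 4, and likewise in alg-1 AEDH (319089 and 332497 against 220818 and 219138 CPM), while all 4 alg-2 AEDH libraries lay between 286221 and 316308 CPM. Its part in the mir-70 result was not tested. By share, which uses no scaling, mir-70 stood at 0.277 ± 0.0567% in wild type, 0.589 ± 0.188% in alg-1 AEDH and 0.589 ± 0.236% in alg-2 AEDH.

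The guides in experiment 3 gave differences between -0.47 and -0.04. The most negative was mir-70_3p in alg-2 AEDH, at 5157, 6374, 7186 and 5036 CPM against 6335, 3941, 12178 and 11974 CPM in wild type. In replicates 1 and 2 alone its difference was 0.12 and in replicates 3 and 4 alone -0.79. Every mutant library was above every wild-type library in 5 of 197 arms in alg-1 AEDH (2.54%), 4 of them among the 78 star arms. In alg-2 AEDH this held for 19 of 197 arms (9.64%), 18 of them star arms. In each mutant 2 of the 3 member stars were among them. The median of all 78 star arms in the fit was 0.14 in alg-1 AEDH and 0.30 in alg-2 AEDH. By ratio, 57 of 74 hairpins shifted toward the star arm in alg-1 AEDH (median 0.21) and 67 of 74 in alg-2 AEDH (median 0.57).

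In L4 larvae the star differences between double AEDH and wild type were smaller. The mir-57 star was at 116, 69.3 and 100 CPM in the mutant and 76.3, 47.9 and 39.6 CPM in wild type, a log2 difference of 0.81 with overlapping groups. The mir-70 star was at 113, 80.4 and 101 CPM against 70.4, 66.5 and 52.3 CPM, a difference of 0.64 without overlap. The mir-67 star was at 38.9, 25.2 and 11.3 CPM against 23.2, 15.7 and 13.6 CPM, a difference of 0.51, and the mutant library of replicate 3 was below all wild-type libraries. Without mutant replicate 1 it was 0.11 and without mutant replicate 3 it was 0.85. By share, mir-57 stood at 0.682 ± 0.208% against 0.331 ± 0.114% and mir-70 at 0.184 ± 0.0323% against 0.106 ± 0.0104%, both without overlap. The mir-67 share was 60.0 ± 21.1% against 51.3 ± 3.93% with overlap, since mutant replicate 3 was at 35.8%, and it was higher in 2 of 3 same-numbered pairs. Non-overlap upward occurred in 21 of 223 arms (9.42%), 14 of them star arms, and the median of all 94 star arms was 0.12. By ratio, 54 of 91 hairpins shifted toward the star arm, with a median of 0.14.

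**Figure D3:**
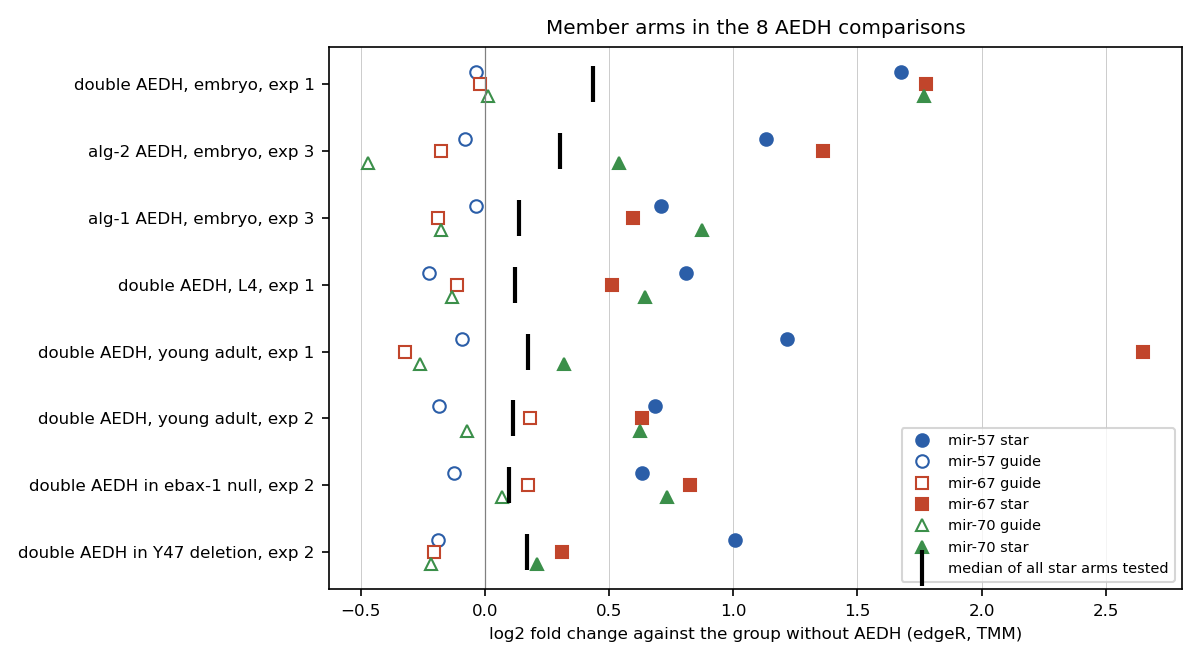
Log2 fold change of each member arm (x axis, edgeR with TMM) in the 8 comparisons of AEDH with the matching group without AEDH; filled symbols are star arms, open symbols guide arms, and the vertical bar is the median of all star arms in that fit. The 3 stars lie together between 1.68 and 1.78 in embryos of experiment 1, and guides lie between -0.47 and 0.18 throughout.

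In young adults the same comparison was made in experiments 1 and 2. In experiment 1 the mir-67 star was at 90.9, 17.9, 13.4 and 4.01 CPM in double AEDH and at 6.69, 5.88, 5.76 and 1.91 CPM in wild type. Replicate 1 of the mutant was far above the rest, and replicate 4 of each genotype was its lowest. The log2 difference was 2.65, the largest member value in any AEDH comparison, and 1.20 without that mutant library. The same library was the highest for the mir-57 star, at 97.5 CPM against 23.3, 23.1 and 45.2 CPM in the other mutant libraries and 10.4 to 26.0 CPM in wild type, and the lowest for both mir-70 arms, at 16.5 CPM for the star and 28132 CPM for the guide. The mir-57 star difference was 1.22, and 0.54 without that library. That of the mir-70 star was 0.32 with overlapping groups, between 0.57 without mutant replicate 1 and -0.13 without mutant replicate 3.

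The embryonic family sum in the mutant young adults of experiment 1 was 140225, 73614, 48610 and 27917 CPM in replicates 1 to 4, the same order as the mir-67 star. In wild type it was 95562, 95796, 63445 and 55409 CPM. Adult hermaphrodites can carry embryos, and mir-67_5p* had the steepest embryo excess among the 6 arms in wild type. The part of the embryonic family's spread in the mir-67 value was not tested. Every mutant library was above every wild-type library in 9 of 220 arms (4.09%). Of these, 6 were star arms, with no member star among them. The median of all 91 star arms was 0.17. By ratio, 62 of 90 hairpins shifted toward the star arm, with a median of 0.20. In same-numbered pairs the mutant star was above wild type in 4 of 4 pairs for mir-57 and mir-67 and in 3 of 4 for mir-70.

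In experiment 2 the young adult values were tighter. The mir-67 star was at 11.3, 13.6, 11.4 and 11.2 CPM in double AEDH and 8.13, 7.17, 7.54 and 7.82 CPM in wild type. The mir-57 star was at 29.5, 36.8, 34.6 and 27.7 CPM against 18.3, 21.2, 22.1 and 19.1 CPM. The mir-70 star was at 32.8, 44.3, 33.5 and 32.9 CPM against 20.0, 28.8, 23.1 and 22.3 CPM. None of the 3 stars overlapped between the genotypes, and the log2 differences were 0.68, 0.63 and 0.63 for mir-57, mir-67 and mir-70. Non-overlap upward occurred in 11 of 226 arms (4.87%), 9 of them star arms, and the median of all 95 star arms was 0.11. By ratio, 58 of 92 hairpins shifted toward the star arm, with a median of 0.14. Here the embryonic family sum was lower in the mutant, at 38056 to 46667 CPM against 58368 to 66570 CPM in wild type. The part of that difference in the star values was not tested. The mir-57 share was 0.434 ± 0.0844% against 0.240 ± 0.0402% without overlap, while the shares of mir-67 (57.7 ± 4.64% against 49.7 ± 6.25%) and mir-70 (0.0966 ± 0.0266% against 0.0612 ± 0.0190%) overlapped.

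**Figure D4:**
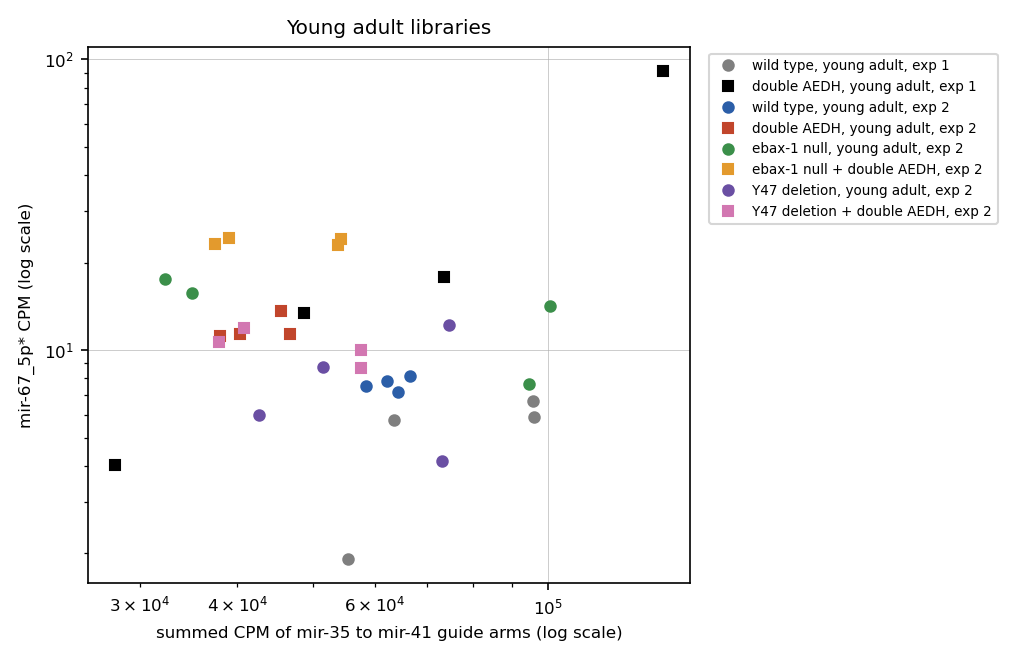
CPM of mir-67_5p* (y axis, log scale) against the summed CPM of the mir-35 to mir-41 guide arms (x axis, log scale) in the young adult libraries, with 1 point per library, circles without and squares with AEDH alleles. The double AEDH libraries of experiment 1 run from 4.01 to 90.9 CPM on the y axis, at family sums from 27917 to 140225 CPM. The 4 libraries of ebax-1 null with double AEDH lie between 23.1 and 24.4 CPM at sums from 37477 to 54215 CPM. In ebax-1 null without AEDH, replicates 1 and 2 lie at 15.7 and 17.6 CPM (sums 34944 and 32346 CPM). Replicates 3 and 4 of that strain lie at 14.2 and 7.62 CPM (sums 100639 and 94613 CPM).

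The remaining strains of experiment 2 repeat the AEDH comparison in other backgrounds, and since it is the measure on which the hairpins were chosen, it is described here without a test. The strains with and without AEDH carried different alleles of the Y47H10A.5 deletion, named above, so allele and AEDH cannot be told apart here. With the Y47H10A.5 deletion present, the mir-57 star was at 36.6, 34.5, 38.7 and 35.3 CPM with AEDH and at 16.0, 16.4, 18.02 and 19.7 CPM without. The groups did not overlap, and the log2 difference was 1.01 for the star and 1.21 for the star-to-guide ratio. For mir-67 the star was at 8.65, 9.98, 11.9 and 10.7 CPM with AEDH and at 12.1, 4.14, 8.73 and 5.98 CPM without. These groups overlapped, because replicate 1 without AEDH was the highest of all 8 libraries. The difference was 0.31, and between 0.11 and 0.68 when 1 library was left out, the latter without that library. The mir-70 star was at 38.6, 31.7, 31.7 and 51.9 CPM against 25.3, 28.2, 27.8 and 47.8 CPM, with replicate 4 the highest in both groups. Its difference was 0.21, and between 0.08 and 0.38 with 1 library left out. Non-overlap upward occurred in 13 of 226 arms (5.75%), 10 of them star arms and 1 a member star. The median of all 95 star arms was 0.17. By ratio, 65 of 92 hairpins shifted toward the star arm, with a median of 0.28. The mir-57 share was 0.509 ± 0.0810% against 0.221 ± 0.0316% without overlap, while the mir-67 and mir-70 shares overlapped.

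In the ebax-1 null background the mir-57 star was at 37.4, 46.4, 37.2 and 36.5 CPM with AEDH and 33.0, 35.8, 20.8 and 15.9 CPM without, a log2 difference of 0.63. For mir-67 it was at 23.1, 24.1, 24.4 and 23.2 CPM against 15.7, 17.6, 14.2 and 7.62 CPM, a difference of 0.83. The groups did not overlap for either star. The mir-70 star was at 34.7, 40.9, 35.4 and 15.8 CPM against 19.9, 25.8, 15.7 and 15.9 CPM, a difference of 0.73, with replicate 4 of the strain with AEDH inside the range without. The star-to-guide ratios differed by 0.84, 0.71 and 0.63 for mir-57, mir-67 and mir-70. By ratio, 60 of 92 hairpins shifted toward the star arm, with a median of 0.21. Replicates 1 and 2 of ebax-1 null stood apart, with an embryonic family sum of 34944 and 32346 CPM against 100639 and 94613 CPM in replicates 3 and 4 and 37477 to 54215 CPM with AEDH. Without those 2 libraries, a setting chosen after the data were seen, the differences were 1.04, 1.05 and 0.92. The part of that spread in the star values was not tested. Non-overlap upward occurred in 15 of 226 arms (6.64%), 13 of them star arms and 2 of them member stars. The median of all 95 star arms was 0.10.

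**Figure D5:**
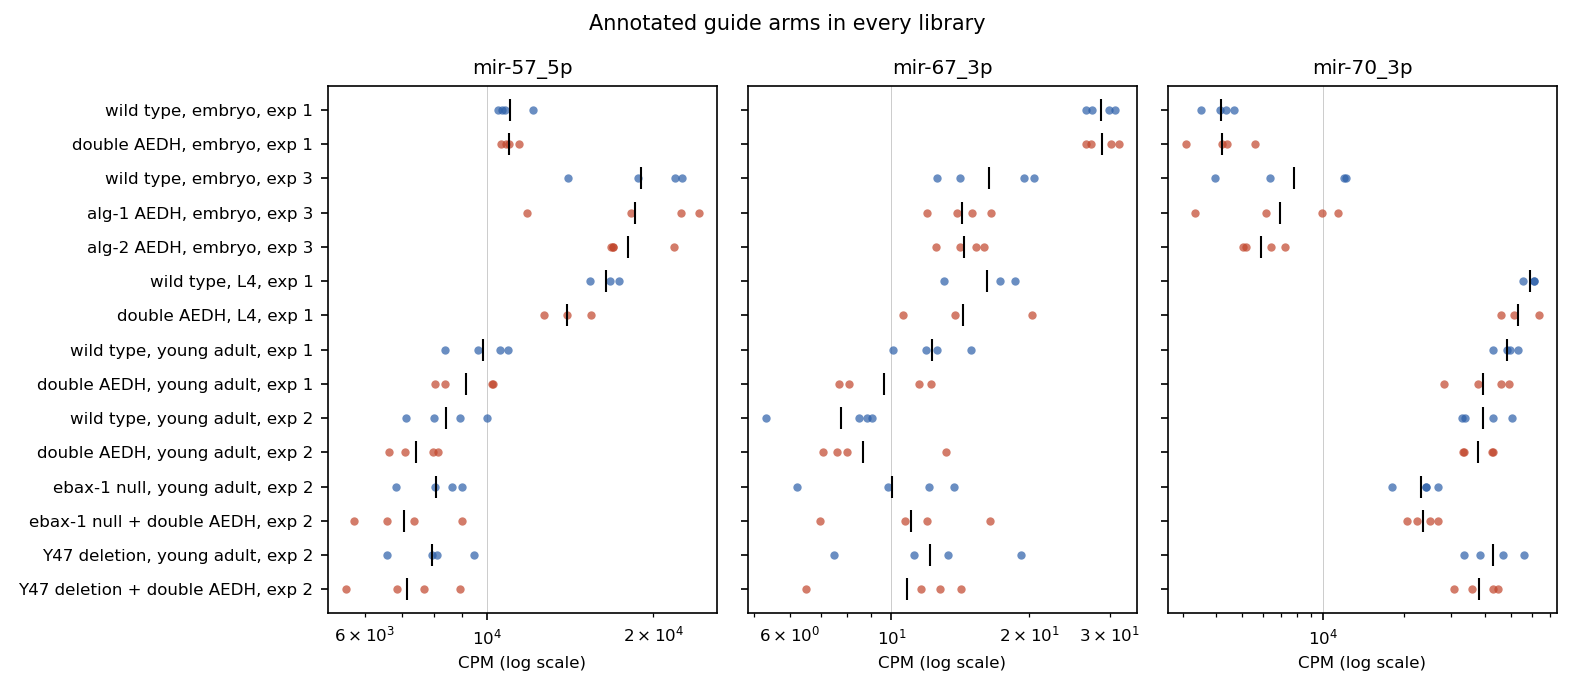
CPM of the 3 annotated guide arms (x axis, log scale) in all 58 libraries by group, with 1 point per library and a bar at the geometric mean; red groups carry an AEDH allele. mir-70_3p lies between 18089 and 26808 CPM in the 8 ebax-1 null libraries and between 30805 and 56234 CPM in the other libraries of experiment 2.

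The contrast made by the ebax-1 allele itself was not the measure used to choose the hairpins. That choice covered Argonaute mutants of all genotypes, so libraries on both sides of these comparisons may have taken part in it. The star tests are therefore not independent of the choice, and their p-values give no separate support. In ebax-1 null against wild type the guide mir-70_3p was at 24220, 26778, 24248 and 18089 CPM against 42944, 33716, 50631 and 33099 CPM. The groups did not overlap, and the guide was lower by -0.83 log2 units (SE 0.20, edgeR adjusted p = 0.00402). With AEDH alleles in both groups it was at 20602, 22339, 25064 and 26808 CPM with the null against 43081, 33130, 42662 and 33424 CPM, again without overlap, a difference of -0.69 (SE 0.20, edgeR adjusted p = 0.0204). The mir-67 star moved the other way, higher by 0.80 (SE 0.26, edgeR adjusted p = 0.0307) in the null against wild type and by 0.99 (SE 0.26, edgeR adjusted p = 0.00991) with AEDH in both, where 23.1 to 24.4 CPM did not overlap with 11.2 to 13.6 CPM. Under TMM the other 4 arms passed in neither comparison, with differences between -0.32 and 0.35. No star-to-guide ratio passed, and all 6 estimates were between 0.37 and 0.65.

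These 2 of 6 arms in each comparison stand against 21.7% of 226 arms called for the null against wild type and 15.9% with AEDH in both. Without overlap, 22 of 226 arms were higher and 25 lower in the null against wild type. With AEDH in both, 17 were higher and 26 lower. The ratios stand against 10.9% and 9.78% of 92. The embryonic family sum of ebax-1 null replicates 1 and 2, given above, lay below the 58368 to 66570 CPM of wild type, and that of replicates 3 and 4 above it. Without replicates 1 and 2 mir-67_5p* was at 0.64 (edgeR adjusted p = 0.203) and mir-70_3p at -0.80 (edgeR adjusted p = 0.0626), a setting chosen after the data were seen. The mir-67 call against wild type was also lost without wild-type replicate 2, 3 or 4 or without ebax-1 null replicate 1, 2 or 3 (0.68 to 0.83, edgeR adjusted p from 0.0575 to 0.0916), and the mir-70 call against wild type was kept in all 8. With AEDH in both groups the mir-70 guide failed the test when double AEDH replicate 1 or 3 was omitted, and also without replicate 1, 2 or 3 of the strain with the null (-0.63 to -0.55, edgeR adjusted p from 0.0834 to 0.142), and the mir-67 call was kept in all 8. Under spike-in scaling the median arm stood at 0.75 against wild type and at 0.47 with AEDH in both, which left mir-70_3p at -0.06 (edgeR adjusted p = 0.798) and -0.16 (edgeR adjusted p = 0.635).

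The Y47H10A.5 deletion, which removes a mir-243 site and none of these hairpins, gave no calls among the members. Against wild type the mir-57, mir-67 and mir-70 stars differed by -0.23 (SE 0.18), 0.03 (SE 0.26) and 0.41 (SE 0.20), with edgeR adjusted p-values of at least 0.548. With AEDH in both groups they differed by 0.09 (SE 0.18), -0.29 (SE 0.26) and -0.00 (SE 0.20), with edgeR adjusted p-values of at least 0.988. In both comparisons 0% of 226 arms passed edgeR and 0% of 92 ratios passed limma, and DESeq2 also called 0 arms. At an unadjusted p under 0.05 edgeR gave 19 arms against wild type, 2 of them members (mir-67_3p and mir-70_5p*), and 7 arms with AEDH in both, none of them members. For the ratios limma gave 5 and 1.

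Across the 15 group means the mir-57 and mir-67 stars followed each other, with a Pearson r of 0.95. Here CPM was scaled by TMM over all libraries and taken as log2(CPM + 1). In contrast, mir-70_5p* gave 0.15 with mir-57_3p* and -0.11 with mir-67_5p*. These points share stages and strains, so the values are a description. Among 172 other arms of at least 10 mean CPM, those most like mir-57_3p* were mir-228_3p*, mir-67_5p* and mir-54_5p* (r from 0.95 to 0.96), and those most like mir-67_5p* were mir-49_5p*, mir-2_5p* and mir-54_5p* (0.96). The 5 distinct arms in these lists are all star arms, and mir-67_5p* is itself one of the 3 hairpins' arms. The group means include the AEDH groups on which the hairpins were chosen, and star arms among the 172 were not counted. The arms most like mir-70_5p* were mir-63_5p*, mir-788_3p and mir-1830_3p, with lower values from 0.70 to 0.79. The guide mir-70_3p was most like mir-63_3p, mir-795_5p and mir-794_5p (0.98 to 1.00). The guide mir-57_5p was most like mir-254_3p, mir-229_3p* and mir-79_5p* (0.93 to 0.95), and mir-67_3p was most like mir-76_3p, mir-62_3p and mir-52_3p* (0.84 to 0.92).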

How the data were processed

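Small RNA libraries of whole C. elegans were sequenced in 58 samples. The authors deposited 1 table of read counts per annotated arm, treated here as estimated counts because 5.67% of values end in 0.5, and an annotation of arm positions (ce11, MirGeneDB v2.0, per the file headers). The submitters' processing notes name HTSeq 0.13.5 and Bowtie2 2.4.4, beside cutadapt 3.4, SAMtools 1.13 and DESeq2. Counts were rounded, and the spike-in rows and the rows that name no gene (between 11.9 and 44.6% of a library for reads with no feature) were left out of library sizes. Arms that passed filterByExpr (minimum count 10) were tested with edgeR 4.0.16 (quasi-likelihood, TMM), and log2 star-to-guide ratios, with 0.5 added to each arm and both arms averaging 10 counts or more, with limma 3.58.1. Benjamini-Hochberg adjustment ran over all arms or hairpins of a fit, and calls are at 0.05. DESeq2 1.42.0 was an alternative. On simulated counts the scripts were tested first. The fits took the libraries of wild-type stages of experiment 1 together and all libraries of experiment 2 together. The star is the arm marked in the annotation for 132 hairpins and, for the other 6, the arm rarer in wild type. Levels are plain CPM, while log2 differences and correlations use TMM. Other arms named are the 3 most correlated with each member over group means. The members, lists and tests were chosen with earlier results of these data known. Tests planned for AEDH within the ebax-1 null and the Y47H10A.5 deletion are not reported, because the hairpins were chosen on that measure. The closest replicate pair still differed (chi-square 106 times its degrees of freedom), so none was merged. Same-numbered libraries deviated together in 4 of 4, 3 of 3 and 4 of 4 pairs (correlation over 0.1) between genotypes of young adults, L4 and embryos in experiment 1, whose values are descriptions. Genome positions of genes come from the WBcel235 annotation, the same build as ce11. Sequences are not used here.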

Additional observations from a re-analysis of the deposited data

Results flagged for a closer look

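In 117 combinations of a member's level or share with a group of 4 libraries, 10 held a library whose gap to its nearest neighbour exceeded Dixon's limit, and chance alone flags about 1 in 20. No explanation was weighed for any of them. In double AEDH young adults of experiment 1 the mir-67 star stood at 90.9 CPM in replicate 1 and at 4.01 to 17.9 CPM in the others. In double AEDH young adults of experiment 2 replicate 2 was the highest for 3 arms, with 13.6 CPM against 11.2 to 11.4 CPM for the mir-67 star, 13.2 CPM against 7.07 to 7.99 CPM for the mir-67 guide and 44.3 CPM against 32.8 to 33.5 CPM for the mir-70 star.

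The mir-57 star was at 46.4 CPM in replicate 2 of ebax-1 null with double AEDH, against 36.5 to 37.4 CPM in the others. The mir-57 guide was at 21774 CPM in replicate 3 of alg-2 AEDH embryos, against 16750 to 16922 CPM. The mir-67 star was lowest, at 93.6 CPM, in replicate 1 of the wild-type embryos of experiment 3, against 100 to 101 CPM. The mir-67 guide was lowest, at 5.31 CPM, in replicate 3 of wild-type young adults of experiment 2, against 8.50 to 9.06 CPM. The mir-67 star share was 93.5% in replicate 3 of alg-1 AEDH embryos, against 90.5 to 90.6%. The mir-70 star was at 47.8 CPM in replicate 4 of the Y47H10A.5 deletion, against 25.3 to 28.2 CPM.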

How the results depend on the processing

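Counts of member arms that passed stayed within 1.5 times in 82 of 97 recomputations and counts of member ratios in 75 of 76. The median of the 3 star differences between groups with and without AEDH, which has no test, moved by less than the replicate spread in 118 of 119, the exception being AEDH within the Y47H10A.5 deletion. With spike-in totals 5 member arms passed between wild-type L4 and young adults in place of 3, 4 in place of 2 for ebax-1 null against wild type and 1 in place of 2 with AEDH in both. Without replicates 1 and 2 of ebax-1 null, 0 arms passed against wild type. Leaving out 1 library at a time gave 1 to 3 member arms for ebax-1 null against wild type and 1 to 2 with AEDH in both, 0 to 1 ratios between wild-type L4 and young adults, and a median star difference of 0.21 to 0.68 for AEDH within the deletion. The guide mir-57_5p changed direction at -0.58 with total counts (embryo against L4) and at 0.65 with spike-in totals (ebax-1 null against wild type). The causes were not tested.

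Over all 226 arms, spike-in totals gave 107 calls in place of 49 for ebax-1 null against wild type. That count was 22 without its replicates 1 and 2, 28 without replicate 2 and 32 without wild-type replicate 1. Single libraries left out took the count with AEDH in both from 36 to 19 at the lowest, and that for the deletion against wild type from 0 to 1.

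With the replicate number as a block, the median star difference of double AEDH in experiment 1 was 1.05 in place of 1.22 in young adults, 0.64 in L4 and 1.76 in embryos. Same-numbered libraries deviated together (correlation over 0.1) in 1 of 10 pairs of wild-type stages, 32 of 60 in experiment 2 and 9 of 12 in experiment 3. The median correlation was 0.16 against -0.05 for other pairs in experiment 2, and 0.42 against -0.15 in experiment 3. What same-numbered libraries share there is not given by the labels, and the main fits left them unpaired. The block left the member counts as they were except for 2 ratios in place of 3 between embryos and L4. The low counts of mir-67 in young adults limit its share there. Spike-ins were too few in experiment 3 to scale by, with 16 to 48 counts.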
